A study of Mus musculus with 2 samples.

Results

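The nuclear genes of the respiratory chain and ATP synthase were followed in hindlimb muscle of mice that lack Srsf2 in the myogenic lineage. They were taken as the mRNA rows of the deposited expression table whose symbols start with Nduf, Uqcr or Atp5, together with Sdha, Sdhb, Sdhc, Sdhd, Cyc1 and Cycs. This gave 76 genes of 44787 in the table and of 22669 mRNA genes. The tested library came from SRSF2 flox/flox MyoD-Cre mice, in which Cre recombinase is driven by MyoD, so that cells outside the muscle lineage keep intact Srsf2. Its control came from SRSF2 flox/flox mice, which carry the same floxed alleles without Cre. An effect of the Cre allele itself and the effect of losing Srsf2 cannot be told apart. Srsf2 encodes a serine- and arginine-rich splicing factor, and the comparison asks how the muscle transcriptome differs without it. Each genotype was sequenced as 1 library of hindlimb muscle RNA, and the labels give neither the age of the animals nor how many were pooled. No difference below therefore has a replicate check or a test, and "higher" and "lower" describe these 2 libraries.

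The respiratory chain passes electrons from NADH and succinate to oxygen at the inner mitochondrial membrane. Complex I oxidises NADH, complex II oxidises succinate, complex III hands the electrons from ubiquinol to cytochrome c, and complex V (ATP synthase) uses the resulting proton gradient to make ATP. Most subunits are encoded in the nucleus and imported, while a small set is made from the mitochondrial genome, and fibres of oxidative type are rich in all of them. The prefixes also bring in genes that are not subunits of these complexes: the assembly factors Ndufaf1 to Ndufaf7 of complex I, Ndufa4 (now placed in complex IV) with its paralog Ndufa4l2, and Atp5s and Atp5sl. The other 65 genes encode structural subunits or cytochrome c.

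Values are FPKM, fragment counts normalised to gene length and library size. The MyoD-Cre library held 76702198 reads, of which 80.0% were mapped, and the flox/flox library 69422626 reads, of which 81.4% were mapped. The level of Srsf2 was 19.4 FPKM in the MyoD-Cre library and 31.1 FPKM in the flox/flox library, a ratio of 0.624. Skeletal muscle markers were abundant in both libraries, and all 16 had lower values in the MyoD-Cre library (summed level 18978 against 30984 FPKM). The 13 keratinocyte markers summed to 1998 FPKM in the MyoD-Cre library against 12.6 FPKM in the flox/flox library, and all 13 were at least 1.5-fold higher, from Trp63 at 4.12 against 1.95 FPKM to Krt1 at 669 against 2.48 FPKM. None of the 13 was at 0 in either library, and 9 were under 1 FPKM in the flox/flox library. Of 12 adipocyte markers, 10 were measured, 7 were higher by the same fold and 1 was lower (summed level 788 against 368 FPKM), while the 8 fibroblast and matrix markers summed to 5909 against 3743 FPKM. The 8 erythroid markers summed to 2770 against 1272 FPKM, with 5 higher by the same fold, while 3 had differences under 0, the lowest of them Klf1 at 0.697 against 1.42 FPKM. The 6 endothelial markers had similar sums of 131 and 143 FPKM. Differences in these cell populations move with every result below, their part in the results was not tested, and in bulk tissue fewer cells of a type and less RNA per cell cannot be told apart.

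All 76 genes reached 1 FPKM in at least 1 library. They spanned a wide range of levels, with a median of 52.5 FPKM in the MyoD-Cre library and 55.7 FPKM in the flox/flox library. Atp5b, the catalytic beta subunit of ATP synthase, was the most abundant at 745 FPKM in the MyoD-Cre library and 779 FPKM in the flox/flox library. Atp5s was the least abundant at 1.16 and 1.17 FPKM. The order of levels was close to the same in both libraries, with a Pearson correlation of 0.992 across the 76 genes on the log2 scale. These genes share both libraries and are not independent replicates.

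**Figure D1:**
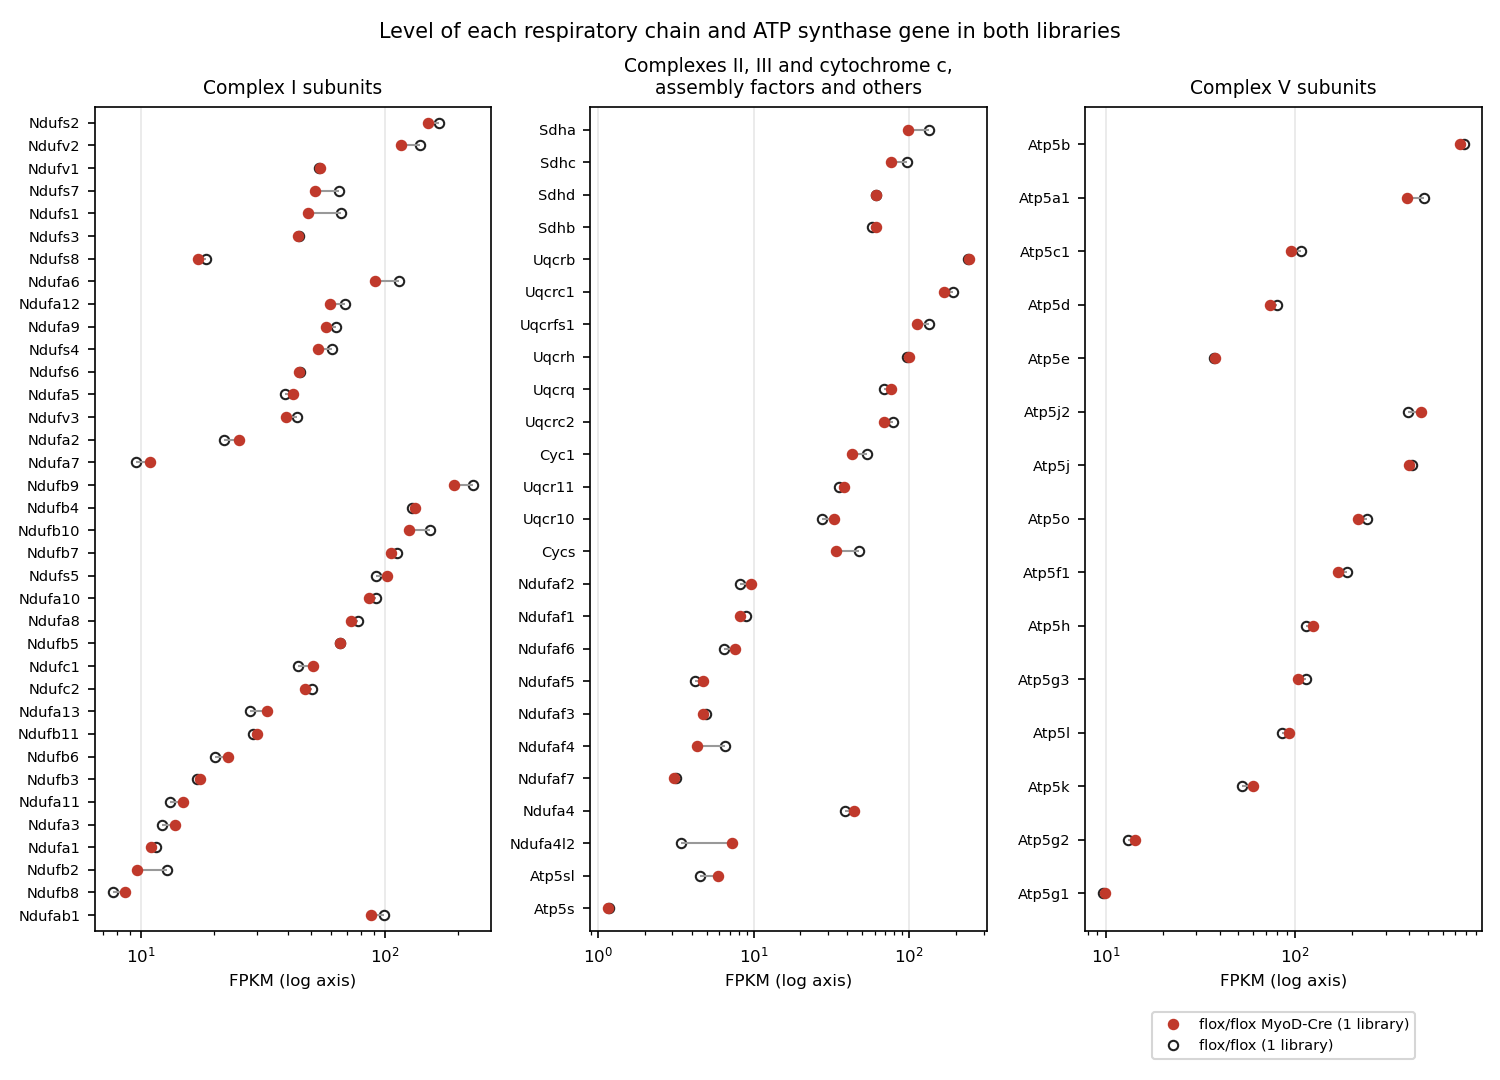
Level of each of the 76 genes in FPKM on a log axis, with a filled point for the MyoD-Cre library, an open point for the flox/flox library and a line between them. The paired points lie close together for most genes, and the widest gap belongs to Ndufa4l2, at 7.22 FPKM in the MyoD-Cre library and 3.39 FPKM in the flox/flox library.

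Differences were taken as log2((MyoD-Cre FPKM + 1)/(flox/flox FPKM + 1)), so that negative values mean a lower level in the MyoD-Cre library, and a gene passed the rule of size at a 1.5-fold difference on that scale. None of the 76 genes was lower by this rule, and 1, Ndufa4l2, was higher. Among the 11662 mRNA genes that reached 1 FPKM in either library, 1.91% were lower and 8.67% were higher. The count of lower genes was thus near the background, and the count of higher genes was under it. The group stood differently against the direction of the table as a whole. The median mRNA gene lay at 0.19, above 0, and 25.5% of the mRNA genes had a difference under 0, against 42 of the 76 genes. The 76 genes had a median of -0.02, and 65 of them lay below the median mRNA gene, where 50% of genes lie by definition. Their summed level was 6435 FPKM in the MyoD-Cre library and 6830 FPKM in the flox/flox library, a ratio of 0.942, while the sum over the measured mRNA genes had a ratio of 1.05.

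Whether the group as a whole is called lower thus depends on the scale. When both libraries were brought to a common median of ratios, 69 of the 76 differences were under 0 and their median was -0.22. The median mRNA gene then lay at 0.008. The 16 skeletal muscle markers ranged from -0.96 for Actn3 to -0.15 for Des, with a median of -0.74. A scale set by that median thus depends on the markers listed. Taken relative to it, the 76 genes all lay above 0, with a median of 0.72. On that scale the median mRNA gene lay higher still, at 0.92. The sums of the muscle markers had a ratio of 0.613, so the median and the sum of the respiratory genes lay between those of the muscle markers and those of the mRNA genes, although the ranges overlapped. Directions of single genes and of complexes below are those of the deposited scale. With median of ratios, 17 of the 49 genes named by rule had the other sign, and the medians of all 4 complexes were under 0.

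**Figure D2:**
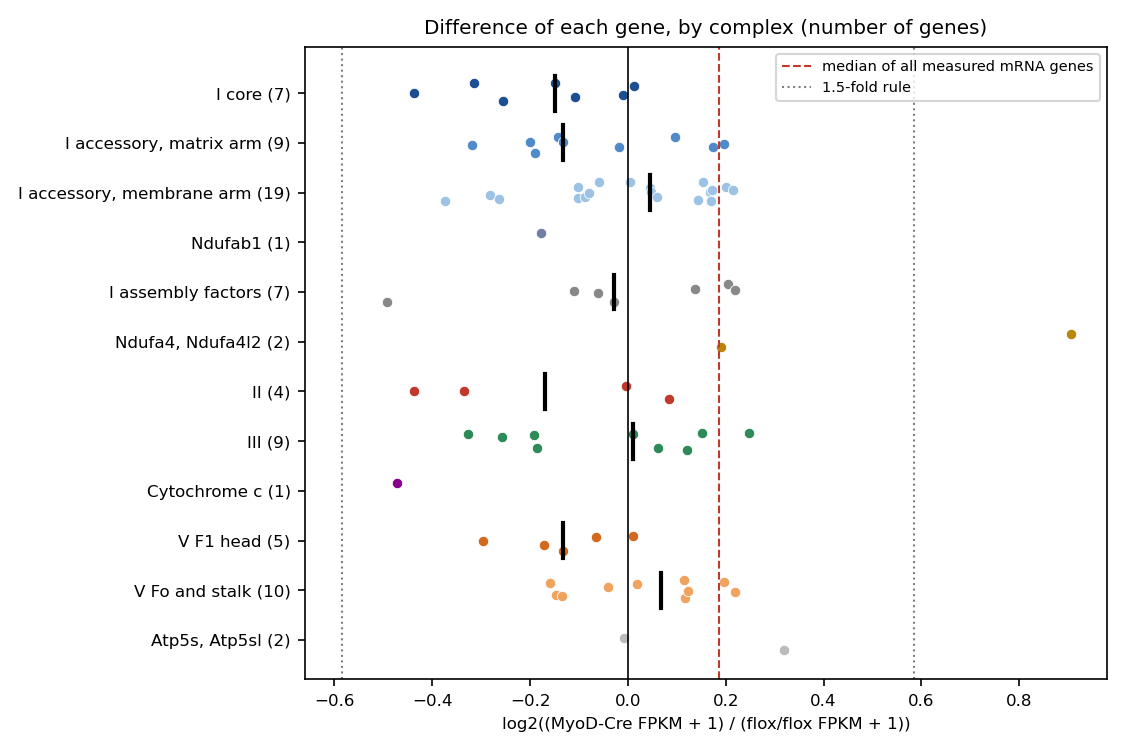
Difference of each gene on the log2(FPKM + 1) scale by complex and role, with the number of genes in brackets, a black bar at the median of groups of 4 or more genes, a dashed line at the median of all measured mRNA genes (0.19) and dotted lines at the 1.5-fold rule. Most points lie left of the dashed line, the core subunits and F1 head genes lie mainly below 0, and Ndufa4l2 is the 1 point beyond a dotted line.

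By complex, complex II had the lowest median difference (-0.17, 4 genes), followed by complex I (-0.07, 36 structural genes), complex V (-0.04, 15 structural genes) and complex III (0.01, 9 genes). The corresponding sums of FPKM in the MyoD-Cre and flox/flox libraries were 298 and 350 for complex II, 2137 and 2317 for complex I, 2987 and 3102 for complex V, and 879 and 923 for complex III. The range within each complex was wider than the gaps between these medians, and each complex held genes on both sides of 0. For the counts under 0 below, the share over all measured mRNA genes was 25.5%. Ratios of single genes are given with 95% Clopper-Pearson intervals, which cover counting error only.

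Complex II is the smallest, and all its subunits are nuclear. Sdha, the flavoprotein that oxidises succinate (chromosome 13, 74322255 to 74350240, minus strand, GRCm38), was at 98.9 FPKM in the MyoD-Cre library and 134 FPKM in the flox/flox library, a ratio of 0.737 (0.700 to 0.776). Sdhc, 1 of the pair of membrane anchors that bind haem, was at 76.2 against 96.4 FPKM, a ratio of 0.791 (0.750 to 0.834). The remaining pair of subunits had near equal levels in both libraries. Sdhb, the iron-sulfur subunit, was at 61.3 against 57.8 FPKM (0.992 to 1.13 for the ratio), and Sdhd, the other anchor, was at 61.3 against 61.5 FPKM (0.937 to 1.06). The intervals of Sdha and Sdhc lay wholly below those of Sdhb and Sdhd, so the 4 subunits of this complex did not differ by a common factor between the libraries beyond counting error.

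Complex I is the largest. Its 7 nuclear core subunits, which carry the flavin and the iron-sulfur clusters, had a median difference of -0.15, and 6 of the 7 were under 0. Ndufs1, which holds several of these clusters (chromosome 1, 63143592 to 63176822, minus strand), was at 48.5 against 66.0 FPKM, a ratio of 0.735 (0.705 to 0.766). Ndufs7, which carries the last cluster before ubiquinone, was at 51.9 against 64.8 FPKM, a ratio of 0.801 (0.746 to 0.859). Ndufv2 was at 117 against 140 FPKM, a ratio of 0.837 (0.807 to 0.868). At the other end, Ndufv1, the subunit that binds NADH and flavin and pairs with Ndufv2, was at 54.2 against 53.7 FPKM (0.953 to 1.07). Ndufs3 was at 44.0 against 44.3 FPKM and Ndufs8 at 17.1 against 18.5 FPKM, both with intervals that included 1.

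The accessory subunits surround this core. The 9 of the matrix arm had a median of -0.13, with 6 under 0. Ndufa6 was the lowest of them at 91.4 against 114 FPKM, a ratio of 0.800 (0.747 to 0.857). Ndufa12 was at 59.7 against 68.7 FPKM, and Ndufs4, whose loss causes a Leigh-like encephalopathy in mice, was at 53.1 against 60.7 FPKM. Ndufa5, Ndufa7 and Ndufa2 lay at the upper end, at 41.9 against 39.1 FPKM, 10.9 against 9.53 FPKM and 25.3 against 21.9 FPKM, and their intervals included 1. Ndufa7 lies on an unplaced scaffold in the deposited table.

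The 19 accessory subunits of the membrane arm had a median of 0.04, with 8 under 0 and 11 above. Ndufb2 was at 9.61 against 12.7 FPKM, with a wide interval of 0.595 to 0.955 from 131 and 165 reads. Ndufb10 was at 126 against 153 FPKM, a ratio of 0.821 (0.776 to 0.869), and Ndufb9 at 192 against 231 FPKM, a ratio of 0.832 (0.787 to 0.880). In the opposite direction, Ndufa13 was at 32.7 against 28.0 FPKM, a ratio of 1.17 (1.07 to 1.27), Ndufc1 at 51.0 against 44.2 FPKM, a ratio of 1.15 (1.02 to 1.30), and Ndufa11 at 14.9 against 13.2 FPKM, a ratio of 1.14 (0.932 to 1.38). Ndufab1, the mitochondrial acyl carrier protein that sits in both arms, was at 88.0 against 99.7 FPKM, a ratio of 0.883 (0.845 to 0.922).

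Levels within complex I differed far more between subunits than between libraries. Ndufb9 was the highest structural gene and Ndufb8 the lowest, at 8.58 FPKM in the MyoD-Cre library and 7.67 FPKM in the flox/flox library, although the assembled complex holds a single copy of each. FPKM is a level per length, and the gene lengths used for it are unknown.

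The 7 assembly factors of complex I were expressed at low levels, between 3.09 and 9.63 FPKM in the MyoD-Cre library, and summed to 42.3 FPKM in each library. Ndufaf4 had the lowest difference of all 76 genes, at 4.34 against 6.51 FPKM, a ratio of 0.667 (0.559 to 0.794). Ndufaf1 and Ndufaf3 were at 8.19 against 8.91 FPKM and 4.71 against 4.96 FPKM. Ndufaf2, Ndufaf6 and Ndufaf5 had the highest differences of this set at 9.63 against 8.13 FPKM, 7.58 against 6.45 FPKM and 4.74 against 4.22 FPKM. Of the 7, Ndufaf4 was the 1 factor whose interval excluded a ratio of 1.

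In complex III, Cyc1, the haem protein cytochrome c1, was at 42.6 against 53.6 FPKM, a ratio of 0.794 (0.745 to 0.845). Uqcrfs1, the Rieske iron-sulfur protein, was at 112 against 134 FPKM, a ratio of 0.835 (0.800 to 0.871). The large core proteins Uqcrc1 and Uqcrc2 were at 168 against 191 FPKM (0.852 to 0.906) and 68.6 against 78.5 FPKM (0.835 to 0.914). These 4 genes encode the largest nuclear subunits of the complex, and all had intervals under 1. The 5 small subunits had higher or similar values in the MyoD-Cre library. Uqcrb was at 241 against 239 FPKM, Uqcrh, the hinge protein, at 100.4 against 96.1 FPKM and Uqcr11 at 38.3 against 35.2 FPKM. Uqcrq was at 76.1 against 68.4 FPKM, a ratio of 1.11 (1.02 to 1.22). Uqcr10 was at 32.9 against 27.6 FPKM, a ratio of 1.19 (1.04 to 1.37). Cycs, the mobile electron carrier cytochrome c, was at 34.0 against 47.5 FPKM, a ratio of 0.715 (0.682 to 0.750). Its FPKM values, like those of Atp5l, were not a ratio of whole reads. Cycs has processed pseudogenes, so how shared reads were divided is unknown. For 20 more genes, among them Cyc1, Uqcrc2, Uqcrb and Atp5a1, the reads behind the intervals are also approximate.

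ATP synthase is built from a catalytic F1 head and a membrane-bound Fo part joined by stalks. The 5 genes of the head had a median of -0.13, with 4 under 0, and summed to 1339 FPKM in the MyoD-Cre library against 1481 FPKM in the flox/flox library. Atp5a1, the alpha subunit, was at 388 against 477 FPKM, a ratio of 0.814 (0.801 to 0.828), whereas its catalytic partner Atp5b had a ratio of 0.956 (0.943 to 0.970). Atp5c1, the gamma subunit of the rotor, was at 95.0 against 107 FPKM. The 10 genes of Fo and the stalks had a median of 0.07, with 6 above 0, and summed to 1648 against 1621 FPKM. Atp5f1, subunit b of the peripheral stalk, was at 168 against 187 FPKM, a ratio of 0.895 (0.867 to 0.923). The small membrane subunits lay at the other end. Atp5j2 was at 461 against 396 FPKM, a ratio of 1.16 (1.12 to 1.21), Atp5k at 60.0 against 52.3 FPKM, a ratio of 1.15 (1.01 to 1.31), and Atp5l at 92.4 against 84.8 FPKM, a ratio of 1.09 (1.01 to 1.18).

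The rotor ring of subunit c is encoded by 3 genes, Atp5g1, Atp5g2 and Atp5g3, whose mature proteins are the same. Atp5g3 supplied most of the transcript, at 104 FPKM in the MyoD-Cre library and 114 FPKM in the flox/flox library, a ratio of 0.911 (0.858 to 0.967). Atp5g2 was at 14.3 against 13.1 FPKM, and Atp5g1 at 9.85 against 9.71 FPKM, with ratio intervals of 0.870 to 1.36 and 0.851 to 1.21. Thus the order of the 3 genes was the same in both libraries. The 200 bases before the transcription start of each, from RefSeq on GRCm38.p6, are shown because these genes make 1 protein at unlike levels. All are on the minus strand and read 5' to 3', at chr11:96075632-96075831, chr15:102671048-102671247 and chr2:73911327-73911526. Capitals mark matches to the NRF1 motif (GCGCA, then any base, then GCGC) in Atp5g2 and to the ERR motif TNAAGGTCA, on the opposite strand, in Atp5g3, where N is any base. Atp5g3 also holds an NRF1 match at position 12 after the start, outside the bases shown.
Atp5g1: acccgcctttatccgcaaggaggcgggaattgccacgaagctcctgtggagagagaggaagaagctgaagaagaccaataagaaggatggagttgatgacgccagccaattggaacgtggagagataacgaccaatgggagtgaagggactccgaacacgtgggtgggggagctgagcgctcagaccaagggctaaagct
Atp5g2: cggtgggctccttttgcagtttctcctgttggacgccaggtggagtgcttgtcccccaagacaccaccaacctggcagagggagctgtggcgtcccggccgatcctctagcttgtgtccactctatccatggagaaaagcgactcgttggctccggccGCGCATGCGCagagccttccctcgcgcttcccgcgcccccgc
Atp5g3: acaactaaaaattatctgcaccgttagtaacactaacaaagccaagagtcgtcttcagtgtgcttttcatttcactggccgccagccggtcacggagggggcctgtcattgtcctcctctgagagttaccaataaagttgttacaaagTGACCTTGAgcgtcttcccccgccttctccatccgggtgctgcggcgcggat

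NRF1 and the oestrogen-related receptors (ERR) are transcription factors known to bind promoters of respiratory genes. Both motifs were searched for on either strand from 250 bases before to 50 bases after each transcription start, and 64 of the 76 genes had such a sequence. The NRF1 motif was found for 18 of the 64 genes (28.1%), against 11.5% of 9262 measured mRNA genes and 4.60% of all 32851 promoters. The 18 genes had a median difference of -0.01, ranging from -0.49 for Ndufaf4 to 0.20 for Atp5k, and the genes without it had -0.02. Genes without a promoter sequence, among them Ndufs1, Sdhc, Cyc1, Atp5a1 and Ndufa4l2, are in neither group. The ERR motif was found for 3 genes, Atp5g3, Ndufb4 and Sdhd (4.69%, against 0.875% of measured mRNA genes and 1.28% of all promoters). The next promoters are shown because they hold the same number of NRF1 matches while the genes had unlike ratios. The pair was picked after the values were seen, and a part of the motif in the ratios was not tested. Sdha and Ndufb4, an accessory subunit of the membrane arm, each hold 3 NRF1 matches in the bases shown (capitals; in Ndufb4 the block TGAAGGTCA is the ERR match), on the minus strand at chr13:74350241-74350440 and chr16:37654369-37654568. Sdha had a ratio of 0.737, while Ndufb4 was at 133 FPKM in the MyoD-Cre library and 129 FPKM in the flox/flox library, a ratio of 1.03 (0.986 to 1.08).
Sdha: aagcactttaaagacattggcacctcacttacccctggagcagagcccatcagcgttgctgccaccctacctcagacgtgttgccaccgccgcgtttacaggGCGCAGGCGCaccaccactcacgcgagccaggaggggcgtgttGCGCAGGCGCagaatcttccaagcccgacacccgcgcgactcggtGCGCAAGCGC
Ndufb4: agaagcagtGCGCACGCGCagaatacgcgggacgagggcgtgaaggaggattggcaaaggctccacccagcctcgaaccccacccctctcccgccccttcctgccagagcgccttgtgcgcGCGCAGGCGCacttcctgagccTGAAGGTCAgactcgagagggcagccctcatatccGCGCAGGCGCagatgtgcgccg

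4 further motifs, searched in the same window, gave 8 genes for YY1 (AAGATGGCG, 12.5% against 3.74% of measured mRNA genes and 1.40% of all promoters), 4 for ETS factors (CCGGAAGT, 6.25% against 9.12% and 3.89%), 29 for SP1 (GGGCGG, 45.3% against 69.8% and 35.7%) and 5 for a TATA box (TATAAA, 7.81% against 9.33% and 13.6%). A match is a string of letters and not a bound site.

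The genes with low and high ratios differed in the length of their transcripts, a property that the choice of genes did not use. For 75 genes with a principal coding transcript in GENCODE M21, the Spearman correlation between length and difference was -0.51, and it was -0.42 without the 6 genes of 2500 nt or more. Over 11008 measured mRNA genes it was -0.04. These are correlations across genes within 1 pair of libraries. Gene length also enters FPKM, but alike in both libraries, so it cancels in the ratio apart from the pseudocount. The lengths behind the deposited values are unknown. The fewest whole reads that fit the FPKM values give the shortest length that fits, which was well under the principal transcript for several genes. Among them were Sdha (953 against 2900 nt), Sdhc (1189 against 3171 nt), Ndufaf4 (1816 against 3632 nt) and Atp5g1 (966 against 4660 nt). Others included Ndufa10 (610 against 2020 nt) and Ndufc1 (414 against 1249 nt). Whole multiples of these reads and lengths fit equally well, and for Ndufaf4 the principal length is such a multiple. The shortest lengths thus do not show which lengths were used, and all genes are placed here by the principal transcript. The 19 genes under 600 nt had a median of 0.12, with 5 under 0, and the 21 genes of 600 to 1000 nt had a median of 0.04. The 13 genes of 1500 to 2500 nt had a median of -0.16, with 12 under 0. The 5 genes of 2500 to 4000 nt had a median of -0.44, and all were under 0. Among all measured mRNA genes, the shortest class also had the highest median (0.34 for 168 genes, against 0.18 for the 3138 genes of 2500 to 4000 nt), and 71 of the 75 genes lay below the median of their own length class. The difference was also related to level, with a Spearman correlation of -0.45 with the FPKM of the flox/flox library over the 76 genes. That library enters both measures.

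**Figure D3:**
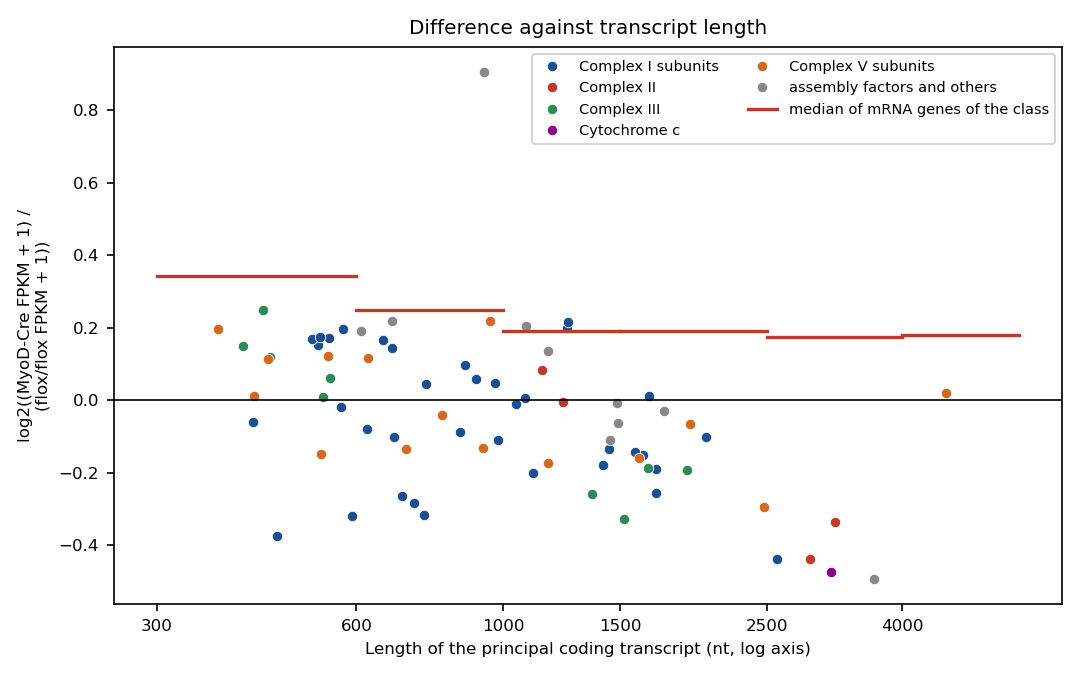
Difference of 75 genes on the log2(FPKM + 1) scale against the length of the principal coding transcript (log axis), coloured by complex, with a red line at the median of all measured mRNA genes in each length class. The points run from a median of 0.12 under 600 nt to -0.44 at 2500 to 4000 nt, 71 of 75 lie below the line of their class, and the point at the far right is Atp5g1 (0.02).

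Of the genes that carry a prefix without being subunits, Ndufa4l2 stood out. Its product is a mitochondrial protein known as a target of hypoxia signalling. The level was 7.22 FPKM in the MyoD-Cre library and 3.39 FPKM in the flox/flox library, a ratio of 2.13 (1.65 to 2.77) from about 195 and 87 reads. The locus (chromosome 10, 127509304 to 127517154, plus strand) overlaps Shmt2 on the other strand, which was at 7.37 against 5.26 FPKM. No strand setting of the counts is known, so reads of the pair cannot be told apart with certainty. On the scale with 1 FPKM added, the difference of Ndufa4l2 was 0.90, short of a 2-fold rule. None of the 76 genes passed that rule, while 0.36% of mRNA genes were lower and 2.41% higher. With 0.1 FPKM added instead, the difference of Ndufa4l2 was 1.07, past 2-fold. Ndufa4, its paralog, was at 44.2 against 38.6 FPKM, a ratio of 1.14 (1.03 to 1.28). Atp5sl, which takes part in complex I assembly, was at 5.89 against 4.52 FPKM, a ratio of 1.30 (1.12 to 1.52), the second highest of the 76.

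Other genes of the same pathway differed in both size and direction on the deposited scale. Beside the counts below, 1.91% of measured mRNA genes were lower by the rule, 8.67% were higher and 25.5% had a difference under 0. All 13 subunits encoded by the mitochondrial genome had lower values in the MyoD-Cre library (median -0.40, 3 lower by the rule), from ND4 at 1588 against 2568 FPKM to ATP8 at 4899 against 5349 FPKM. The mitochondrial genome took 5.63% of the mapped reads in the MyoD-Cre library and 6.37% in the flox/flox library. Citrate cycle enzymes had a median of -0.32, with 11 of 12 under 0. Among them, Idh3a, a subunit of isocitrate dehydrogenase, was lower by the rule at 74.3 against 126 FPKM. Suclg2, a ligase subunit, was at 10.7 against 8.72 FPKM. Of 6 genes of ATP export and ATP synthase regulation, 2 were lower by the rule. Ckmt2, the mitochondrial creatine kinase of muscle, was at 66.7 against 144 FPKM, and Slc25a4, the adenine nucleotide carrier of muscle and heart, was at 792 against 1217 FPKM. Their companions Slc25a5, the more widely expressed carrier, and Atpif1, an inhibitor of ATP synthase, were at 117 against 95.4 FPKM and 99.6 against 77.1 FPKM.

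The nuclear subunits of complex IV had a median of 0.07 over 15 genes, with 2 higher by the rule. That count was near the share of 8.67% over all measured mRNA genes. The 2 genes were Cox6a1 at 53.3 against 33.9 FPKM and Cox4i2 at 3.82 against 1.91 FPKM. The muscle forms Cox7a1 and Cox6a2 were at 4.09 against 5.74 FPKM and 59.1 against 74.3 FPKM. Assembly factors without the prefixes had a median of -0.06 over 15 measured genes, none past the rule, from Tmem70, an ATP synthase assembly factor, at 20.3 against 25.3 FPKM to Acad9, a complex I assembly factor, at 6.76 against 4.53 FPKM. Mitochondrial membrane and import proteins had a median of -0.05 over 13 genes, none past the rule, from the outer membrane channel Vdac1 at 144 against 186 FPKM to the import receptor Tomm22 at 18.9 against 14.8 FPKM. A chosen list of 12 large-subunit proteins of the mitochondrial ribosome, not the whole subunit, had a median of 0.03. None passed the rule, from Mrpl10 at 7.42 against 8.70 FPKM to Mrpl13 at 50.1 against 33.2 FPKM. The 9 measured regulators of respiratory genes had a median of 0.28 with none past the rule. Ppargc1b, a coactivator of mitochondrial genes, was at 2.35 against 3.58 FPKM, and Gabpb1, a subunit of an ETS factor, at 7.69 against 5.18 FPKM.

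**Figure D4:**
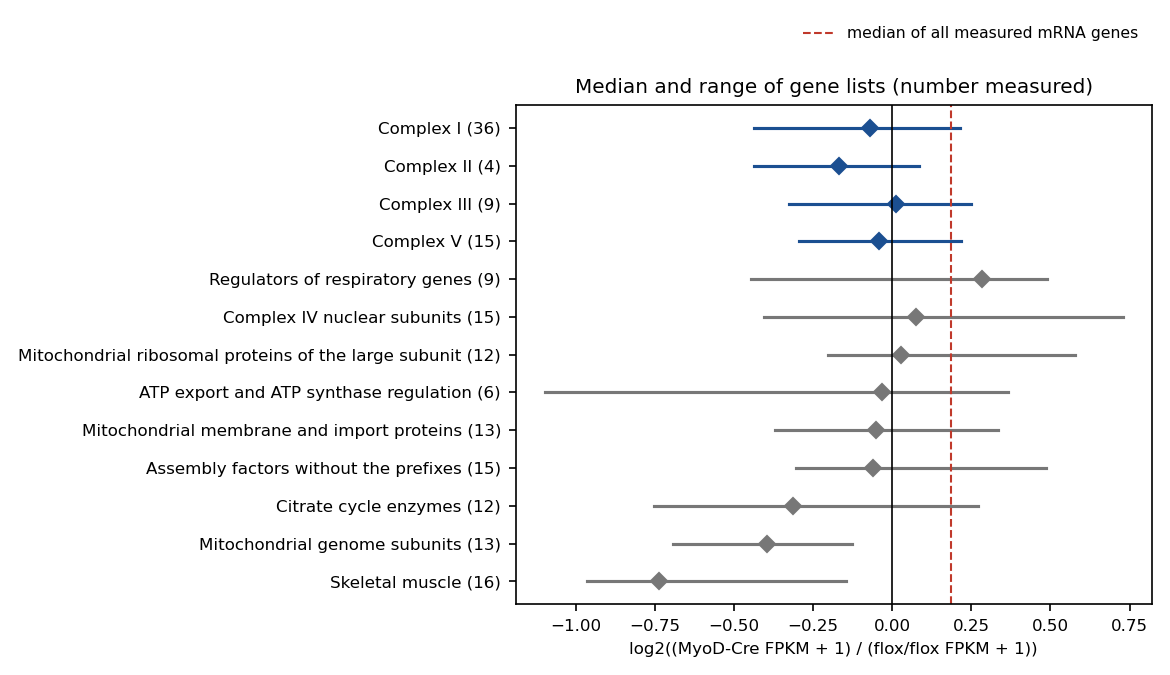
Median (diamond) and range (line) of the differences of each complex in blue and of related gene lists and the skeletal muscle markers in grey, on the log2(FPKM + 1) scale, with the number of measured genes in brackets. The medians of the 4 complexes lie between the median of the skeletal muscle markers (-0.74) and that of all mRNA genes (dashed line, 0.19), and the ranges of complexes I, III and V reach past the dashed line.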

How the data were processed

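Hindlimb muscle RNA was sequenced from 1 library per genotype, and groups follow the genotype labels. Bowtie 0.12.2 and the mm9 build appear, without a role, in the submitters' processing notes, but the deposited coordinates are on GRCm38: 75 of the 76 genes have a GENCODE M21 entry of the same symbol, and 74 lie there at the same place. A counter, annotation or strand setting was not given in the sources used here. FPKM values, normalised to gene length and library size, were deposited per gene, and tables of read counts were deposited per library and chromosome. The table had 1 empty line.

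The deposited FPKM values were used without rescaling, with a pseudocount of 1 FPKM and a minimum of 1 FPKM in at least 1 library, and without any test. FPKM ratios of low genes are ratios of whole reads, which gave the reads behind 54 of the 76 genes, taken as the fewest reads that fit a gene length of 250 nt or more. Whole multiples of these reads fit equally well and would give narrower intervals. The reads of the other 22 are approximate, from FPKM and the principal transcript length. Intervals are exact Clopper-Pearson intervals at 95%, for counting error only, since each genotype holds 1 library. PCR copies were not marked by molecular identifiers, and the intervals make no allowance for them. The principal transcript is the coding one with the best APPRIS rank, then support level. Promoters came from RefSeq (GRCm38.p6).

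Members and lists were chosen with earlier results of these data known. Named genes are all of complexes II and III, cytochrome c, the subunit c genes, Ndufa4 and Ndufa4l2, the 3 lowest and 3 highest of each complex I group and of complex V, and up to 2 at either end of a pathway list; Atp5b, Atp5s, Atp5sl, Ndufab1, Ndufb4, Ndufb8 and the marker genes were named after their values were seen. The steps were tested on simulated data. Alternatives were the pseudocount, filter, fold, scaling, membership and background. Scripts ran on Python 3.11.15 with pandas 2.3.3, numpy 2.4.6 and scipy 1.17.1, and figures were drawn with matplotlib 3.10.9.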

Additional observations from a re-analysis of the deposited data

How the results depend on the processing

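No paired analysis was possible because each genotype holds 1 library, and no library could be left out. A pseudocount of 0.1 FPKM, a minimum of 5 FPKM, no minimum and all gene types as background left the counts of 0 lower and 1 higher genes and moved no median by more than 0.1. The 1 higher gene was not counted with a 2-fold rule at the pseudocount of 1 FPKM (0 higher), nor among the structural subunits alone (0 higher). The latter leave it out by construction. Scaling decided the direction of the group. With median of ratios, the medians were -0.22 for all 76 genes, -0.27 for complex I, -0.38 for complex II, -0.20 for complex III and -0.25 for complex V. They were -0.23, -0.28, -0.39, -0.21 and -0.26 in the same order without the 50 most abundant genes. Under either scaling 4 genes, Cycs, Ndufaf4, Ndufs1 and Sdha, were lower by the 1.5-fold rule, against a background of 4.28% and 4.40%. Relative to the skeletal muscle markers, the medians were 0.72, 0.67, 0.57, 0.75 and 0.70, and 55 genes were higher, against 86.5% of mRNA genes. Relative to mRNA genes of the same length class, chosen after seeing the data, they were -0.29, -0.33, -0.35, -0.33 and -0.29, and 6 genes were lower (background 4.48%). The cause of these changes was not tested, beyond the shift that each scaling applies to all genes. Of 49 named genes, 26 had differences under 0 as deposited, 43 with median of ratios, 44 without the 50 most abundant genes, 45 relative to the length class and 0 relative to the muscle markers. As counted here, Ndufaf4 rests on the fewest reads of the 4 lower genes. It had about 221 in the MyoD-Cre library, against about 2644 to 3984 for the other genes.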
